A study of Mus musculus with 12 samples.

Results

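The peroxiredoxins and the antioxidant enzymes that work beside them were followed in RNA sequencing data of sorted mouse fetal liver (FL) cells. The 10 genes were taken by name: the 6 peroxiredoxins *Prdx1* to *Prdx6*, *Cat* (catalase), *Sod1* (copper-zinc superoxide dismutase), *Gpx1*, and *Gpx4* (glutathione peroxidases). Each name was found once among the 38127 genes of every library. All 10 passed the filter on low counts in every comparison, with between 1012 and 31880 counts per gene and library.

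The study followed Kit+ cells of FL and their relation to the red cell lineage, and the libraries were 12 in number, 3 from each of 4 sorted populations of C57BL/6 embryos without Ter119 and CD45, the surface proteins of red cells and of most other blood cells. At embryonic day (E) 14.5, P2 cells had the phenotype Ter119-CD45-CD54-CD31-Kit+CD24+, CD31+ cells the phenotype Ter119-CD45-CD54+CD31+, and CD54+CD31- cells the phenotype Ter119-CD45-CD54+CD31-. The last population, which the study names CD324+ after epithelial cadherin, was sorted with the same surface phenotype at E18.5. Total RNA was depleted of ribosomal sequences, and total counts ranged from 40714017 to 64368883 per library, of which the 10 genes held between 0.0855% and 0.226%. The design text calls the replicates biological, and the study names independent litters for E14.5 only.

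Cells make superoxide and hydrogen peroxide whenever they use oxygen. Superoxide dismutases turn superoxide into hydrogen peroxide, and catalase, glutathione peroxidases, and peroxiredoxins reduce the peroxide to water. A peroxiredoxin does so with a cysteine that the peroxide oxidizes and that thioredoxin or glutathione then restores, whereas GPX1 and GPX4 use selenocysteine. Red cells carry hemoglobin, whose iron drives the formation of oxidants, and peroxiredoxin 2, catalase, superoxide dismutase 1, and glutathione peroxidase 1 are their main soluble defenses, whereas hepatocytes are rich in peroxisomes and therefore in catalase.

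The coding sequence around the reactive residue is shown for the 6 peroxiredoxins, because it is what makes them a family and because their transcripts differed so much between the populations. Each run holds 10 codons of the GENCODE vM21 transcript (GRCm38), read 5′ to 3′ on the coding strand, and the capitals mark the codon of the peroxidatic cysteine, found as the last letter of the only match to proline, 3 residues, threonine, 2 residues, and cysteine in the translated sequence.
Prdx1: cctcttgactttacttttgtgTGTcccacg
Prdx2: ccactggacttcacttttgttTGCcccacg
Prdx3: cctttggatttcacatttgtgTGTcctaca
Prdx4: ccactggatttcacctttgtgTGTccaact
Prdx5: cctggggcatttacacctggcTGTtctaag
Prdx6: ccacgggactttaccccagtgTGCaccaca
The cysteine was codon 52 of 199 in *Prdx1* (chr4:116691802-116691831, plus strand), codon 51 of 198 in *Prdx2* (chr8:84970462-84970491, plus strand), and codon 47 of 224 in *Prdx6* (chr1:161247362-161247391, minus strand). It was codon 109 of 257 in *Prdx3* and codon 127 of 274 in *Prdx4*, whose longer leaders direct the proteins to mitochondria and to the secretory pathway, and in both genes the 10 codons were split by an intron. In *Prdx5* it was codon 99 of 213 (chr19:6907982-6908011, minus strand). The selenium enzymes were read in the same way, with the in-frame TGA that encodes selenocysteine in capitals, since this codon ties *Gpx1* and *Gpx4* to the selenoprotein factors described further on.
Gpx1: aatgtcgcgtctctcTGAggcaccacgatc
Gpx4: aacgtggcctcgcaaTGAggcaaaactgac
The TGA was codon 47 of 201 in *Gpx1* (chr9:108339436-108339465, plus strand) and codon 129 of 253 in the longest coding sequence of *Gpx4* (chr10:80054722-80054751, plus strand). Both runs lie within an exon.

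Before the values of the 10 genes, the libraries were set against marker lists of the cells that could be present. P2 libraries had summed levels of 15 erythroid markers between 3559 and 3961 CPM (counts scaled by edgeR's TMM factors, per 1e+06 counts), against 642 to 1048 in CD31+ cells, 993 to 1608 in CD54+CD31- cells, and 206 to 597 at E18.5. Among them *Alas2* was listed at 0 in all 12 libraries, and *Slc4a1* had means of 120 CPM in P2 cells, 126 in CD31+ cells, and 224 in CD54+CD31- cells. Of 14 tested markers 10 were higher and 1 lower in P2 than in CD54+CD31- cells (edgeR adjusted p below 0.05), beside 33.8% and 36.1% of all genes. Against CD31+ cells 10 were higher and 0 lower in P2 cells, beside 34.3% and 39.4%. The 12 hepatoblast markers summed to between 82049 and 94264 CPM in CD54+CD31- cells and at most 1122 in the other E14.5 libraries, and the 10 endothelial markers to between 9390 and 9959 CPM in CD31+ cells and at most 389 elsewhere. CD31+ cells also had the highest sums of 8 granulocyte markers (155 to 664, against at most 134), and 7 megakaryocyte markers (289 to 520.5, against at most 83.2). Of 10 macrophage markers, *Mrc1* alone had 1305 to 1517 CPM in CD31+ cells and at most 54 elsewhere, while the other 9 summed to 56.3 to 105 CPM there, against 136 to 233 in CD54+CD31- cells.
The E18.5 libraries stood apart from their label. Their 11 lung epithelium markers summed to 23445, 10971, and 11091 CPM in replicates 1, 2, and 3, against 97.0 to 251 in all E14.5 libraries, where *Abca3* made up most of the sum and *Nkx2-1*, *Lamp3*, and *Scgb1a1* were at or near 0. Their 9 mesenchymal markers summed to between 3988 and 4412 CPM, against 45.4 to 244 at E14.5. The 12 hepatoblast markers reached only 6289 CPM in replicate 1, against 42850 and 55842 in replicates 2 and 3. The E18.5 values of the 10 genes and the counts of the other lists are therefore also given without replicate 1, and age and this difference in make-up cannot be told apart.

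In P2 cells 4 of the 10 genes were higher than in CD54+CD31- cells, 4 were lower, and 2 did not pass the test. *Gpx1*, *Prdx2*, *Prdx6*, and *Prdx3* were 3.15-, 2.49-, 2.04-, and 1.84-fold higher, and *Prdx1*, *Prdx4*, *Cat*, and *Prdx5* were 4.92-, 4.45-, 2.96-, and 1.84-fold lower. Against CD31+ cells 7 genes were higher in P2 cells and 3 were lower, with *Prdx6* (5.94-fold) and *Prdx3* (4.65-fold) the furthest apart. CD31+ cells had 0 of the 10 genes higher than CD54+CD31- cells and 9 lower, and E18.5 cells had 0 higher than E14.5 cells and 8 lower.
These populations differ in most of their genes, so the counts stand beside a high background. Calls are adjusted p below 0.05 in edgeR's quasi-likelihood test, over 15461 genes at E14.5 and 15863 genes in the comparison of ages. The share of all tested genes called was 70.0% between P2 and CD54+CD31- cells (33.8% higher and 36.1% lower in P2 cells), 73.7% between P2 and CD31+ cells (34.3% higher and 39.4% lower), 65.6% between CD31+ and CD54+CD31- cells (31.7% higher and 34.0% lower), and 69.4% between E18.5 and E14.5 cells (35.9% higher and 33.5% lower). With the authors' factors in place of TMM the median of all genes shifted by -0.26, -0.37, 0.11, and 0.24 log2 units in these comparisons, and P2 cells then had the higher level in 38.2% in place of 48.3% of the calls against CD54+CD31- cells, and in 33.9% in place of 46.6% of those against CD31+ cells. Against that background 8 and 10 of 10 called in the first 2 comparisons are not a result about these genes as a set. The other 2 comparisons had calls in a single direction, with median log2 fold changes over the 10 genes of -1.22 and -1.06, beside -0.03 and 0.03 over all genes tested. The comparisons share libraries, and P2, CD31+, and E18.5 cells were each set against the same 3 CD54+CD31- libraries, so they are not separate evidence. The libraries of both groups did not overlap in 8 of the 10 genes between P2 and CD54+CD31- cells (75.4% of all genes tested), in 10 between P2 and CD31+ cells (77.2%), in 7 between CD31+ and CD54+CD31- cells (69.7%), and in 9 between the ages (77.0%). In sorted bulk samples, fewer cells of a type that uses a gene and less of its RNA per cell cannot be told apart.

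**Figure D1:**
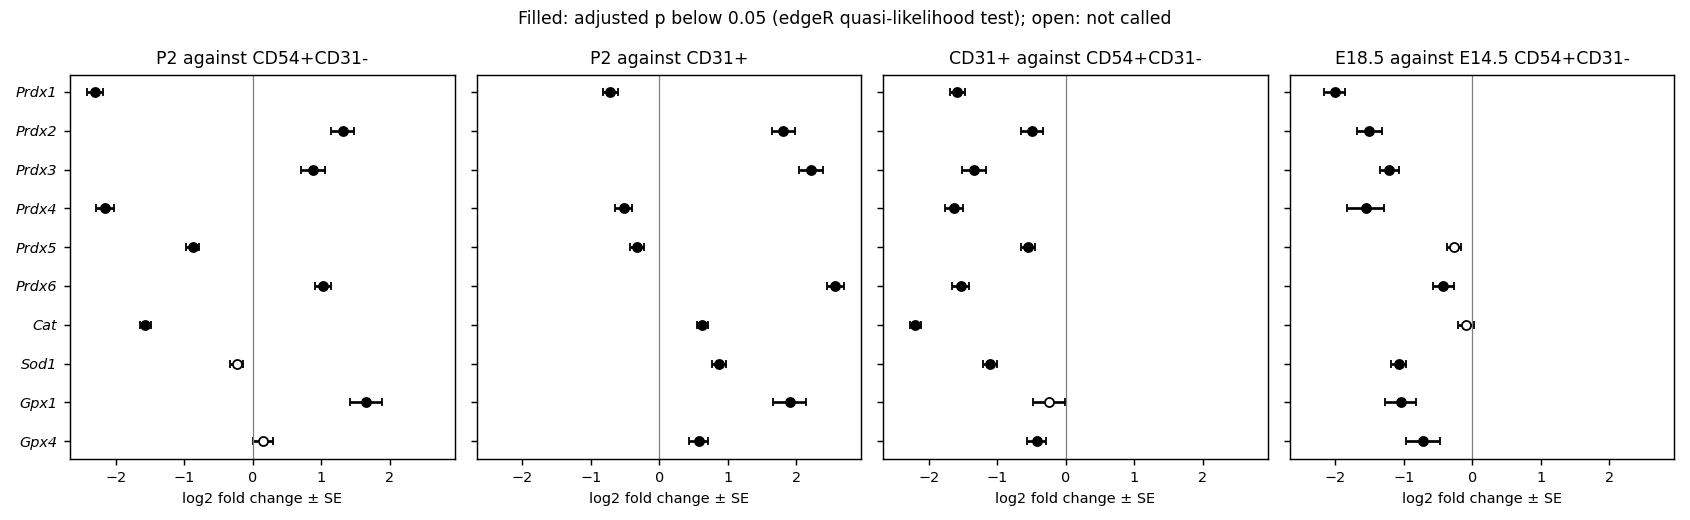
Log2 fold changes with standard errors (x axis) of the 10 genes (y axis) in the 4 comparisons, first-named population over second, with filled points for adjusted p below 0.05 and open points for genes not called. P2 cells split the genes in both directions, whereas all points lie below 0 between CD31+ and CD54+CD31- cells and between E18.5 and E14.5 cells, open points included.

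*Prdx1* (ENSMUSG00000028691, chr4:116685544-116700822) encodes an abundant cytosolic peroxiredoxin. It had 83.4, 105, and 88.3 CPM in the 3 P2 libraries, 146, 161, and 143 in CD31+ cells, 414, 431, and 498 in CD54+CD31- cells, and 80.5, 98.3, and 115 in E18.5 cells. The 3 CD54+CD31- libraries of E14.5 were far above all others, CD31+ libraries lay between them and P2 libraries without overlap, and E18.5 libraries overlapped those of P2. In P2 cells *Prdx1* was 4.92-fold lower than in CD54+CD31- cells (log2 fold change -2.30, standard error 0.11, edgeR adjusted p = 3.51e-08). It was also lower in P2 than in CD31+ cells (log2 fold change -0.71, standard error 0.11, edgeR adjusted p = 0.000163).
*Prdx2* (ENSMUSG00000005161, chr8:84969587-84974834) encodes the cytosolic peroxiredoxin of red cells. Its levels were 359, 317, and 306 CPM in P2 libraries, 84.1, 106, and 88.1 in CD31+ libraries, 102, 166, and 122 in CD54+CD31- cells, and 35.6, 41.1, and 43.7 in E18.5 cells. Every P2 library was above every other library and every E18.5 library below, so P2 cells moved from the low end for *Prdx1* to the top for *Prdx2*. The difference between P2 and CD54+CD31- cells was 2.49-fold (log2 fold change 1.31, standard error 0.17, edgeR adjusted p = 4.45e-05). Against CD31+ cells it was 3.50-fold (log2 fold change 1.81, standard error 0.17, edgeR adjusted p = 4.26e-06). CD31+ libraries overlapped CD54+CD31- libraries, though the test called them lower (log2 fold change -0.49, standard error 0.17, edgeR adjusted p = 0.0228). That call was lost without CD31+ replicate 1 (adjusted p = 0.0770 from edgeR). Exons of *Prdx2* share 350 of 3050 bases with *Junb* and *Rnaseh2a* on the other strand, and the strand setting of the counting was not given in the sources used here.
Each library holds its own control in the ratio of both genes, which no scaling between libraries can move. The ratio of *Prdx2* to *Prdx1* counts per exon length was 4.29, 3.02, and 3.46 in P2 libraries, 0.574, 0.657, and 0.616 in CD31+ libraries, 0.246, 0.386, and 0.244 in CD54+CD31- libraries, and 0.442, 0.417, and 0.379 at E18.5. P2 libraries were thus the only ones of the 12 with more *Prdx2* than *Prdx1* per exon length.

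**Figure D2:**
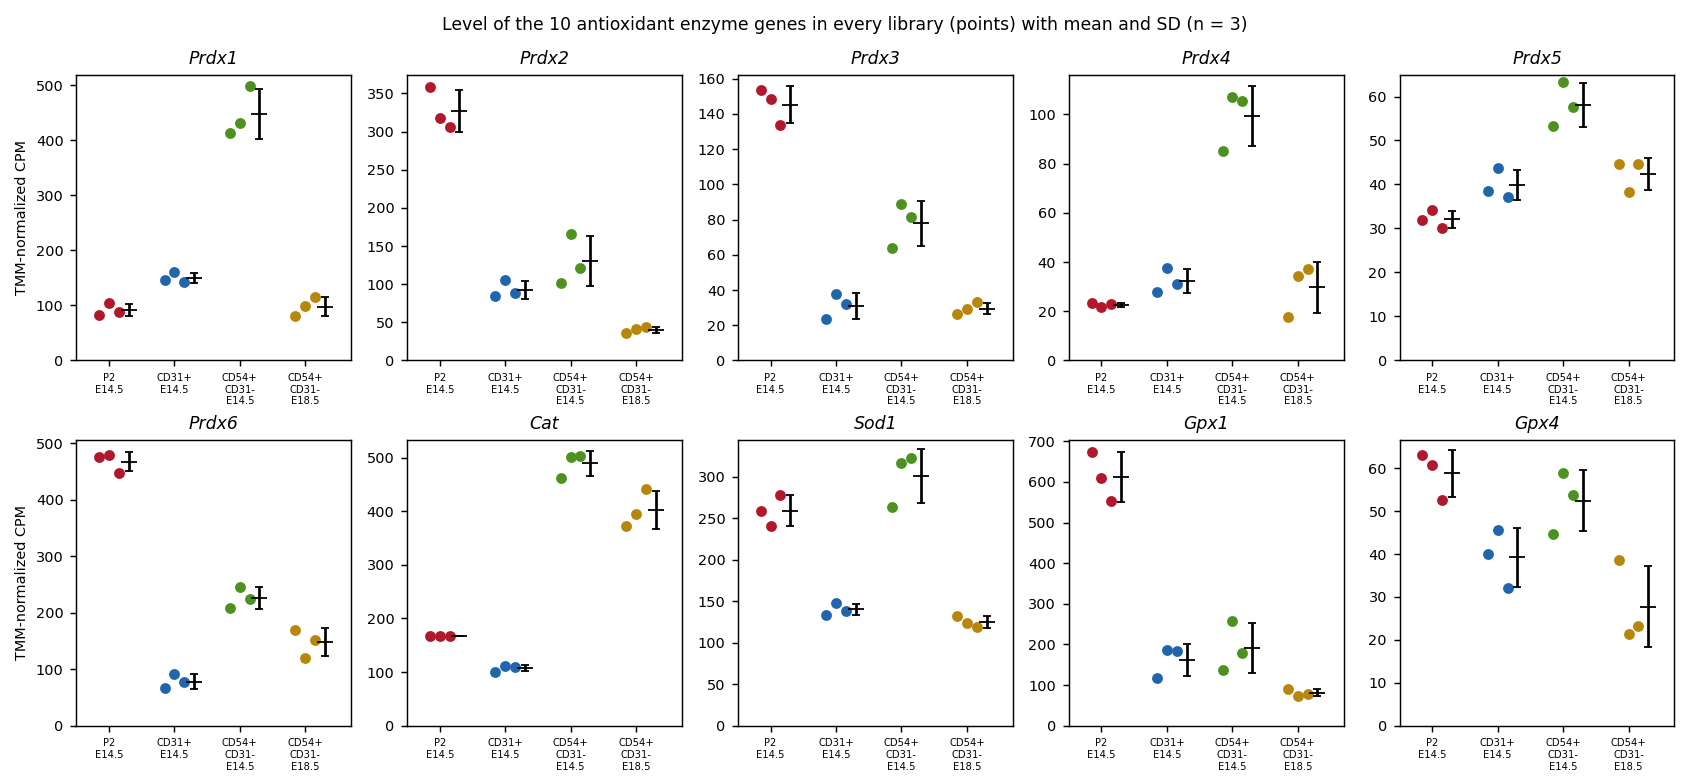
TMM-normalized CPM (y axis, linear, from 0) of each of the 10 genes in the 12 libraries, grouped by population (x axis), with 1 point per library in the order of replicates 1, 2, and 3 and a black mark with bars for the mean and SD (n = 3). P2 libraries (red) are highest for *Prdx2*, *Prdx3*, *Prdx6*, and *Gpx1*, and CD54+CD31- libraries of E14.5 (green) for *Prdx1*, *Prdx4*, *Prdx5*, and *Cat*.

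*Prdx3* (ENSMUSG00000024997, chr19:60864051-60874556) encodes the peroxiredoxin of mitochondria. It had 154, 148, and 133 CPM in P2 libraries, 23.4, 37.6, and 31.9 in CD31+ libraries, 63.9, 88.7, and 81.2 in CD54+CD31- cells, and 26.4, 29.2, and 32.9 in E18.5 cells. P2 libraries were the highest and CD54+CD31- libraries second, with no overlap, and CD31+ and E18.5 libraries overlapped at the bottom. P2 cells exceeded CD54+CD31- cells 1.84-fold (log2 fold change 0.88, standard error 0.17, edgeR adjusted p = 0.000882). They exceeded CD31+ cells 4.65-fold (log2 fold change 2.22, standard error 0.18, edgeR adjusted p = 1.29e-06).
*Prdx4* (ENSMUSG00000025289, chrX:155323918-155340754) encodes the peroxiredoxin of the endoplasmic reticulum, where it takes part in disulfide formation in secreted proteins. Its levels were 23.2, 21.6, and 23.0 CPM in P2 libraries, 27.8, 37.5, and 31.2 in CD31+ libraries, 85.1, 107, and 106 in CD54+CD31- cells, and 17.7, 34.3, and 37.0 in E18.5 cells. The pattern resembled that of *Prdx1*, with the E14.5 CD54+CD31- libraries well above the rest. In P2 cells it was 4.45-fold lower than in CD54+CD31- cells (log2 fold change -2.15, standard error 0.13, edgeR adjusted p = 1.42e-07). It was 1.43-fold lower than in CD31+ cells (log2 fold change -0.52, standard error 0.12, edgeR adjusted p = 0.00319). The latter call was lost when all 12 libraries were fitted together (adjusted p = 0.0674 from edgeR).
*Prdx5* (ENSMUSG00000024953, chr19:6906697-6910106) encodes an atypical peroxiredoxin found in mitochondria, peroxisomes, and cytosol. Its levels spanned the narrowest range among the peroxiredoxins, at 32.0, 34.1, and 30.1 CPM in P2 libraries, 38.5, 43.8, and 37.3 in CD31+ libraries, 53.4, 63.3, and 57.7 in CD54+CD31- cells, and 44.6, 38.2, and 44.6 in E18.5 cells. P2 libraries were below all others, and only CD31+ and E18.5 libraries overlapped. P2 cells were 1.84-fold below CD54+CD31- cells (log2 fold change -0.88, standard error 0.10, edgeR adjusted p = 1.70e-05). The difference between P2 and CD31+ cells was smaller (log2 fold change -0.32, standard error 0.10, edgeR adjusted p = 0.0120). It was lost without a low count filter (adjusted p = 0.0568) and without P2 replicate 1 (0.0958), P2 replicate 3 (0.0583), or CD31+ replicate 2 (0.131, all from edgeR). Of 2139 exonic bases of *Prdx5*, 409 overlap *Trmt112* on the other strand.
*Prdx6* (ENSMUSG00000026701, chr1:161240112-161251219) encodes a peroxiredoxin that relies on glutathione and also has phospholipase activity. Its levels were 475, 480.0, and 448 CPM in P2 libraries, 66.0, 91.6, and 76.9 in CD31+ libraries, 208, 245, and 224 in CD54+CD31- cells, and 169.9, 121, and 152 in E18.5 cells. All 4 populations were separated without overlap, from P2 cells at the top to CD31+ cells at the bottom. P2 cells were 2.04-fold above CD54+CD31- cells (log2 fold change 1.03, standard error 0.12, edgeR adjusted p = 2.03e-05). They were 5.94-fold above CD31+ cells (log2 fold change 2.57, standard error 0.12, edgeR adjusted p = 6.87e-08). Counts assigned to the copies *Prdx2-rs3*, *Prdx6-ps2*, and *Prdx6b* came to 29, 4, and 7 over all libraries, and how reads with several alignments were treated was not given in the sources used here.

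As a share of the peroxiredoxin counts per exon length, *Prdx1* made up 8.45% ± 1.06 (SD, n = 3) in P2 cells, 32.8% ± 2.14 in CD31+ cells, 40.6% ± 3.52 in CD54+CD31- cells, and 24.7% ± 2.36 in E18.5 cells. Exon length joins the exons of all annotated transcripts, from 1478 bases in *Prdx3* to 4804 in *Prdx6*, so the shares depend on the annotation. The shares of P2 cells were spread over *Prdx2* (29.9% ± 1.48), *Prdx3* (27.4% ± 0.567), and *Prdx6* (27.1% ± 0.599), while *Prdx4* had 2.99% ± 0.212 there. In CD54+CD31- cells of E14.5, *Prdx4* had 12.9% ± 0.308 and *Prdx2* 11.6% ± 2.11. The TMM-scaled sum of the 6 peroxiredoxins nevertheless overlapped between P2 cells (1126, 1106, and 1029 CPM) and CD54+CD31- cells (926, 1101, and 1089 CPM). CD31+ cells (386, 477, and 408 CPM) and E18.5 cells (375, 362, and 426 CPM) were well below both. Over all 10 genes the sums were 2184 ± 105 CPM in P2 cells, 873 ± 95.7 in CD31+ cells, 2073 ± 212 in CD54+CD31- cells, and 1024 ± 57.5 in E18.5 cells (SD, n = 3). On this scale P2 libraries (2080 to 2289 CPM) overlapped CD54+CD31- libraries of E14.5 (1834 to 2237 CPM). As a share of total counts they did not, with 0.226%, 0.217%, and 0.209% in P2 libraries against 0.137%, 0.175%, and 0.173%. Whether the sums of these populations overlap thus depends on the scaling.

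**Figure D3:**
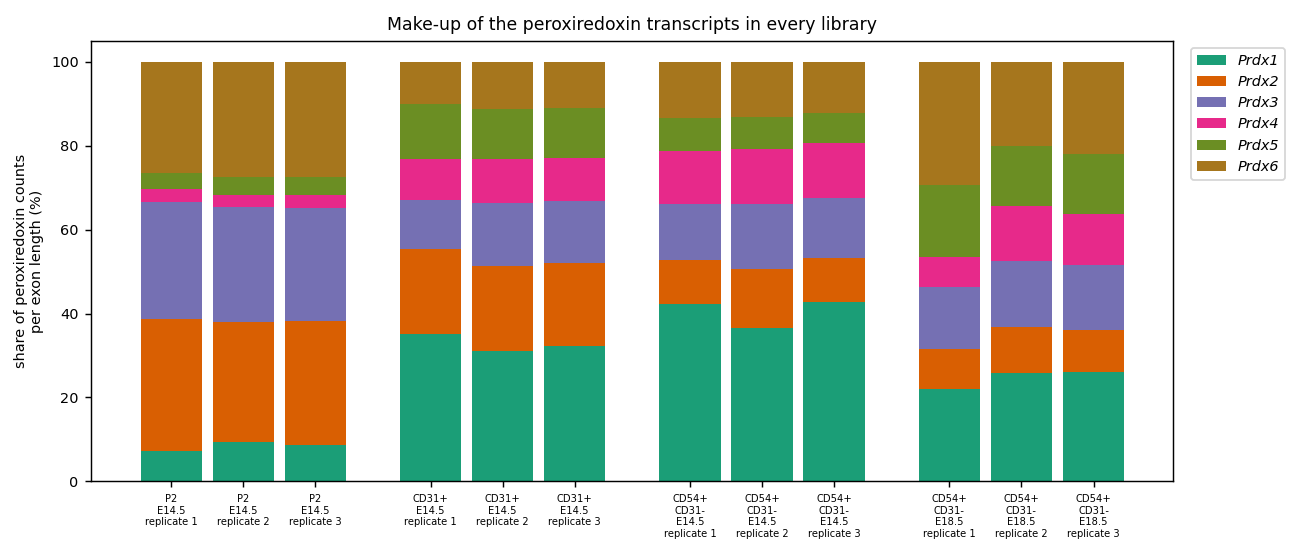
Stacked bars of the share (y axis, %) that each of the 6 peroxiredoxin genes takes of their counts per exon length, with 1 bar per library (x axis, grouped by population). *Prdx1* is the largest share in the 6 CD31+ and CD54+CD31- libraries of E14.5 and holds 7.33% to 9.43% in P2 libraries, and replicate 1 of E18.5 has a *Prdx6* share of 29.3% and a *Prdx4* share of 6.99%.

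*Sod1* (ENSMUSG00000022982, chr16:90220754-90226329) encodes the cytosolic enzyme that makes hydrogen peroxide from superoxide. It had 259, 241, and 278 CPM in P2 libraries, 134, 148, and 139 in CD31+ libraries, 264, 317, and 323 in CD54+CD31- cells, and 133, 124, and 119 in E18.5 cells. P2 and CD54+CD31- libraries of E14.5 overlapped at the top, and all CD31+ and E18.5 libraries lay below them. The difference between P2 and CD54+CD31- cells just missed the threshold (log2 fold change -0.24, standard error 0.10, edgeR adjusted p = 0.0528). Under 7 other settings *Sod1* was called lower in P2 cells, with adjusted p between 0.000327 (edgeR with the authors' factors) and 0.0496 (edgeR with the replicate block). P2 cells were 1.83-fold above CD31+ cells (log2 fold change 0.88, standard error 0.10, edgeR adjusted p = 1.66e-05).
*Cat* (ENSMUSG00000027187, chr2:103453849-103485160) encodes catalase, the peroxidase of peroxisomes, which red cells also carry. Its levels were 167, 167, and 167 CPM in P2 libraries, 100.3, 111, and 110.1 in CD31+ libraries, 462, 502, and 503 in CD54+CD31- cells, and 372, 394, and 441 in E18.5 cells. CD54+CD31- libraries of both ages were above all P2 libraries, which in turn were above all CD31+ libraries. P2 cells were 2.96-fold below CD54+CD31- cells (log2 fold change -1.57, standard error 0.08, edgeR adjusted p = 3.74e-08). They were 1.55-fold above CD31+ cells (log2 fold change 0.63, standard error 0.08, edgeR adjusted p = 2.97e-05).
*Gpx1* (ENSMUSG00000063856, chr9:108338903-108340343) encodes the main cytosolic glutathione peroxidase. It had 673, 609.6, and 552 CPM in P2 libraries, 116, 186, and 185 in CD31+ libraries, 138, 258, and 179 in CD54+CD31- cells, and 91.0, 74.3, and 78.4 in E18.5 cells. P2 libraries were above all others, E18.5 libraries below all others, and CD31+ and CD54+CD31- libraries overlapped. P2 cells were 3.15-fold above CD54+CD31- cells (log2 fold change 1.66, standard error 0.24, edgeR adjusted p = 0.000103). They were 3.74-fold above CD31+ cells (log2 fold change 1.90, standard error 0.24, edgeR adjusted p = 3.57e-05).
*Gpx4* (ENSMUSG00000075706, chr10:80047166-80056439) encodes the peroxidase of membrane lipids, which holds back ferroptosis. Its levels were 63.1, 60.7, and 52.6 CPM in P2 libraries, 40.1, 45.6, and 32.1 in CD31+ libraries, 44.7, 58.9, and 53.8 in CD54+CD31- cells, and 38.5, 21.3, and 23.3 in E18.5 cells. P2 and CD54+CD31- libraries of E14.5 overlapped, and all CD31+ and E18.5 libraries were below all P2 libraries. No difference between P2 and CD54+CD31- cells passed the test (log2 fold change 0.15, standard error 0.14, edgeR adjusted p = 0.379). Its sign turned with the authors' factors (-0.11, edgeR adjusted p = 0.478). P2 cells were 1.49-fold above CD31+ cells (log2 fold change 0.57, standard error 0.14, edgeR adjusted p = 0.0042). With the authors' factors this value was 0.21 and missed the threshold (edgeR adjusted p = 0.182).
The ratio of *Gpx1* to *Cat* counts per exon length was 7.29, 6.61, and 5.98 in P2 libraries, 2.10, 3.02, and 3.05 in CD31+ libraries, 0.541, 0.932, and 0.647 in CD54+CD31- libraries, and 0.444, 0.342, and 0.322 at E18.5. Between the 2 enzymes that remove hydrogen peroxide, *Gpx1* thus led per exon length in every P2 and CD31+ library and *Cat* in every CD54+CD31- library of both ages. Which gene leads depends on the annotated lengths, 1441 bases for *Gpx1* and 2613 for *Cat*, most of all in CD54+CD31- replicate 2 of E14.5 (0.932).

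Levels of different genes were compared per kilobase of exon, counted over all annotated exons, from 1441 bases in *Gpx1* to 4804 in *Prdx6*. The order of genes and their ranks depend on these lengths. In P2 cells *Gpx1* led with 425 ± 42.0 CPM per kb (SD, n = 3), rank 45 of 16617 genes, followed without overlap by *Prdx2* (107 ± 9.03), which did not separate from *Prdx3* (98.3 ± 7.11), nor *Prdx3* from *Prdx6* (97.3 ± 3.65). *Prdx4* was last (10.7 ± 0.421). CD54+CD31- cells of E14.5 were led by *Cat* (187 ± 8.98), rank 142 of all genes, then by *Prdx1* (147 ± 14.7) and *Gpx1* (133 ± 42.3), which overlapped each other, and *Prdx5* was last (27.2 ± 2.34). In CD31+ cells *Gpx1* (113 ± 27.6) and *Prdx1* (49.3 ± 3.18) led, and from *Gpx4* (22.8 ± 3.95) down to *Prdx4* (15.3 ± 2.32) neighbours overlapped. At E18.5 *Cat* (154 ± 13.6) was again first, at rank 99, and *Prdx2* (13.2 ± 1.35) was last.

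Within CD54+CD31- cells of E14.5, replicate 2 had the highest erythroid sum (1608 CPM, against 993 and 1172) and also the highest *Prdx2* (166 CPM, against 102 and 122), *Gpx1* (258, against 138 and 179), *Prdx3* (88.7, against 63.9 and 81.2), and *Prdx6* (245, against 208 and 224), which are the 4 genes higher in P2 cells. It was also the highest of the 3 in *Prdx4* (107, against 85.1 and 106) and *Prdx5* (63.3, against 53.4 and 57.7), which were lower in P2 cells, and in *Gpx4* (58.9, against 44.7 and 53.8), but not in *Prdx1*, *Cat*, or *Sod1*. The same library had 134 CPM of granulocyte markers, against 10.2 and 10.4. Whether red cell precursors in the sort add to these levels was not tested. Without this library the log2 fold changes in P2 over CD54+CD31- cells were 1.52 for *Prdx2*, 1.91 for *Gpx1*, 0.97 for *Prdx3*, and 1.08 for *Prdx6*, each still called. In CD31+ cells the order of libraries was not the same, since replicate 3 had the highest erythroid sum (1048 CPM) and replicate 2 the highest *Prdx2* (106 CPM). P2 replicate 2 had an endothelial sum of 389 CPM, against 58.8 and 105 in the other P2 libraries, and the highest *Prdx1* of the 3. Without it *Prdx1* in P2 cells was still called lower, with log2 fold changes of -2.39 against CD54+CD31- cells and -0.81 against CD31+ cells.

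**Figure D4:**
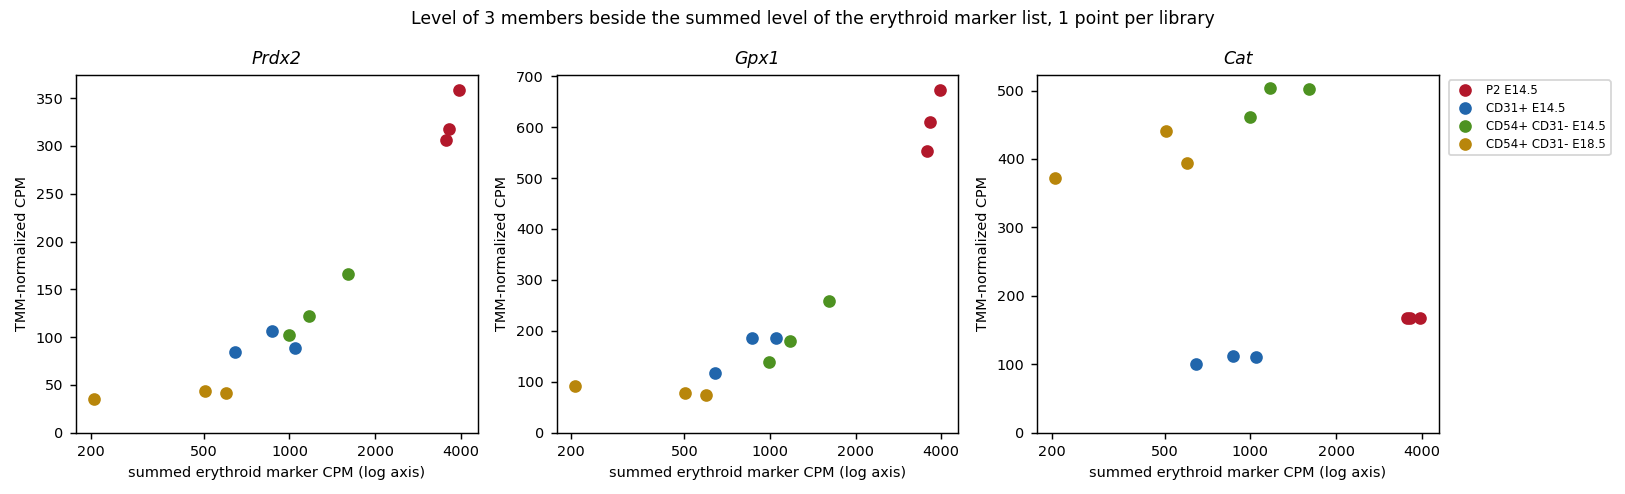
Level of *Prdx2*, *Gpx1*, and *Cat* (y axes, TMM-normalized CPM, from 0) against the summed level of 15 erythroid markers (x axis, CPM, log axis), with 1 point per library coloured by population. *Prdx2* and *Gpx1* are high where the marker sum is high, up to 359 and 673 CPM at a sum of 3961 CPM, whereas *Cat* is highest in CD54+CD31- libraries.

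CD31+ cells were called lower than CD54+CD31- cells in 9 genes, all but *Gpx1*. The furthest apart was *Cat*, 4.58-fold lower in CD31+ cells (log2 fold change -2.20, standard error 0.08, edgeR adjusted p = 4.51e-09). *Prdx4*, *Prdx1*, and *Prdx6* were 3.10-, 3.00-, and 2.90-fold lower, *Prdx3* 2.53-fold, *Sod1* 2.16-fold, and *Prdx5* 1.47-fold, each without overlap between libraries and with edgeR adjusted p of at most 0.000579. For *Gpx4* the libraries overlapped and the call was weaker (log2 fold change -0.43, standard error 0.14, edgeR adjusted p = 0.0232). It missed the threshold with the authors' factors (0.0570), with all 12 libraries in a single fit (0.111), and without CD54+CD31- replicate 3 (0.0631, all edgeR adjusted p). *Gpx1* did not pass (log2 fold change -0.25, standard error 0.23, edgeR adjusted p = 0.367).

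Between E14.5 and E18.5 CD54+CD31- cells, 8 genes fell and *Prdx5* and *Cat* did not pass. Fold changes come from a fit of these 6 libraries, in which the median of all genes lies 0.19 log2 units higher at E18.5 than on the scale of all 12 libraries used for levels. *Prdx1* fell most, 4.02-fold (log2 fold change -2.01, standard error 0.15, edgeR adjusted p = 6.13e-05). *Prdx4* was 2.95-fold lower (log2 fold change -1.56, standard error 0.27, edgeR adjusted p = 0.00187). *Prdx2* was 2.84-fold lower (log2 fold change -1.51, standard error 0.18, edgeR adjusted p = 0.000394). *Prdx3* fell 2.32-fold, *Sod1* 2.11-fold, and *Gpx1* 2.07-fold (edgeR adjusted p of at most 0.00553 each), and in these genes no E18.5 library reached an E14.5 library. *Gpx4* was 1.66-fold lower (log2 fold change -0.73, standard error 0.25, edgeR adjusted p = 0.0357). *Prdx6* was 1.34-fold lower (log2 fold change -0.42, standard error 0.15, edgeR adjusted p = 0.0431). The last 2 calls were lost when any library except E18.5 replicate 1 or E14.5 replicate 1 was left out, with values from -0.56 to -0.75 for *Gpx4* and from -0.29 to -0.46 for *Prdx6*. Both were also lost with the authors' factors (edgeR adjusted p = 0.133 and 0.360) and with at least 10 counts in every library (0.0828 and 0.157), and *Prdx6* with 4 further settings (0.0531 to 0.0617). *Prdx5* missed the threshold (log2 fold change -0.27, standard error 0.11, edgeR adjusted p = 0.0588). For *Cat* the difference was within its error (log2 fold change -0.10, standard error 0.11, edgeR adjusted p = 0.472). The sign of the *Cat* value turned with the authors' factors (0.14) and with at least 10 counts in every library (0.050). With all 12 libraries in a single fit, *Cat* and *Prdx5* were called lower at E18.5 (log2 fold changes -0.28 and -0.45, edgeR adjusted p = 0.0161 and 0.00231).
Within E18.5 cells, the replicate with the most lung markers and the fewest hepatoblast markers differed from the other 2 in several of the genes. *Prdx4* in replicate 1 was 0.498 of the mean of replicates 2 and 3, *Gpx4* 1.73, *Prdx6* 1.24, and *Cat* 0.889, whereas *Alb* was 0.0787 and *Sftpc*, a surfactant protein of the lung, 2.36 of that mean. The same library had 372 CPM of *Cat* beside 2405 of *Alb*, the main secreted product of hepatocytes. Without replicate 1 the log2 fold changes were -1.90 for *Prdx1*, -1.31 for *Prdx4*, -1.45 for *Prdx2*, -1.16 for *Prdx3*, -1.14 for *Sod1*, -1.16 for *Gpx1*, -1.06 for *Gpx4*, -0.56 for *Prdx6*, -0.32 for *Prdx5*, and -0.06 for *Cat*, and 9 of the 10 genes were called lower, *Prdx5* included (edgeR adjusted p = 0.0194).

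**Figure D5:**
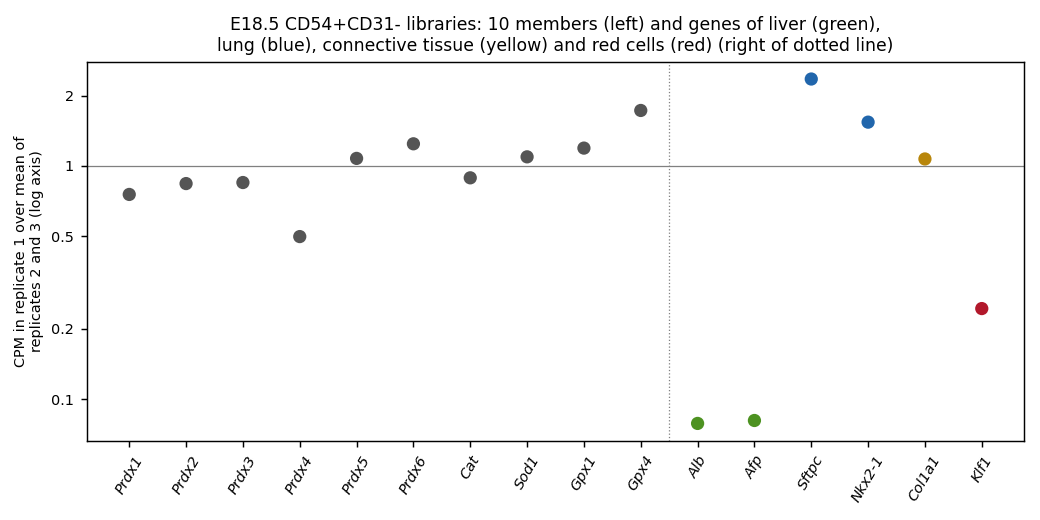
Level in E18.5 replicate 1 divided by the mean of replicates 2 and 3 (y axis, log axis) for the 10 genes and, right of the dotted line, for 6 marker genes of liver (green), lung (blue), connective tissue (yellow), and red cells (red). The 10 genes lie between 0.498 (*Prdx4*) and 1.73 (*Gpx4*), whereas *Alb* and *Afp* lie at 0.0787 and 0.0810 and *Sftpc* at 2.36.

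The list counts that follow stand beside the shares of all tested genes called higher and lower, and no list was tested as a set. These shares were 33.8% and 36.1% in P2 against CD54+CD31- cells, and 34.3% and 39.4% in P2 against CD31+ cells. They were 31.7% and 34.0% in CD31+ against CD54+CD31- cells, and 35.9% and 33.5% in E18.5 against E14.5 cells. Genes that restore oxidized peroxiredoxins, among others, were counted in a list of 10 genes of the thioredoxin system. Of these 9 were tested, since *Txnip* was listed at 0 in all libraries. Against CD54+CD31- cells 3 of the 9 were higher in P2 cells and 2 were lower, and against CD31+ cells 6 were higher and 1 was lower. *Txnrd2*, the thioredoxin reductase of mitochondria, had 105, 105, and 97.3 CPM in P2 libraries, 21.0, 24.2, and 22.6 in CD31+ libraries, and 30.0, 39.0, and 33.1 in CD54+CD31- cells. *Prdx3*, also of mitochondria, had the same order of these populations. For *Txnrd2*, P2 cells exceeded CD54+CD31- cells 2.97-fold (log2 fold change 1.57, standard error 0.11, edgeR adjusted p = 3.84e-07). *Txn2*, mitochondrial thioredoxin, was also higher in P2 cells than in both populations (log2 fold changes 0.34 and 1.59), and the first call was lost with the authors' factors (0.08, edgeR adjusted p = 0.440) and with all 12 libraries in a single fit (edgeR adjusted p = 0.0774). The cytosolic *Txn1* and *Txnrd1* did not pass between P2 and CD54+CD31- cells (0.24 and 0.08, and below 0 with the authors' factors) and were higher in P2 than in CD31+ cells (0.66 and 0.67), where *Txn1* lost its call with the authors' factors (0.29, edgeR adjusted p = 0.131). *Srxn1*, which encodes sulfiredoxin, the enzyme that repairs overoxidized peroxiredoxins, was lower in P2 than in CD54+CD31- cells (-0.80, edgeR adjusted p = 0.00145). Between CD31+ and CD54+CD31- cells its edgeR adjusted p was 0.0507, and 0.0300 with the replicate number as a block. *Sesn3* had 1.98, 3.12, and 2.16 CPM in P2 cells and 64.0, 57.6, and 64.9 in CD54+CD31- cells, and 22.0, 22.7, and 22.0 in CD31+ cells. Between CD31+ and CD54+CD31- cells 1 gene of the list, *Sesn1* (0.32, edgeR adjusted p = 0.0188), was higher and 6 were lower. *Sesn1* lost its call without a low count filter, with all 12 libraries in a single fit, and without some single libraries (0.0793 to 0.183). The lower call of *Txn1* was lost with DESeq2's size factors (0.0516) or the authors' factors (0.113). It was also lost with at least 10 counts in every library, with only the 6 libraries compared, and without some single libraries (0.0595 to 0.154). Between E18.5 and E14.5 cells 2 were higher (*Txnrd3* and *Sesn3*) and 5 lower, with *Srxn1* (-1.86) and *Txn2* (-1.68) lowest.
Of the 12 genes of the glutathione system 11 were tested, and *Gpx8* was listed at 0. P2 cells had 3 higher and 4 lower than CD54+CD31- cells, and 8 higher and 2 lower than CD31+ cells. *Glrx5*, a mitochondrial glutaredoxin needed for iron-sulfur clusters and heme synthesis, had 186, 170.4, and 159 CPM in P2 libraries, 27.3, 41.0, and 33.2 in CD31+ libraries, 61.8, 85.6, and 68.0 in CD54+CD31- cells, and 11.7, 15.4, and 17.0 in E18.5 cells, an order close to that of *Prdx2*. *Gpx3*, the secreted glutathione peroxidase, and *Gpx7*, that of the endoplasmic reticulum, were low in P2 cells, at means of 1.18 and 0.372 CPM against 37.1 and 16.0 in CD54+CD31- cells. *Gsr*, glutathione reductase, did not pass between P2 and CD54+CD31- cells (-0.01) and was higher in P2 than in CD31+ cells (0.46, edgeR adjusted p = 0.00965), but not with the authors' factors (0.091, edgeR adjusted p = 0.558). CD31+ cells had 0 genes of this list higher and 7 lower than CD54+CD31- cells, and E18.5 cells 1 higher, *Gclc* (1.08), and 7 lower than E14.5 cells.
Of the other superoxide dismutases, *Sod2* of mitochondria had 106, 106, and 119.7 CPM in P2 libraries, 22.0, 27.0, and 30.9 in CD31+ libraries, 75.7, 89.1, and 90.6 in CD54+CD31- cells, and 45.9, 45.8, and 52.5 in E18.5 cells. It was higher in P2 cells than in both CD54+CD31- and CD31+ cells (0.36 and 2.04). The first call was lost with the authors' factors (0.094, edgeR adjusted p = 0.512), with at least 10 counts in every library (0.0769), and without P2 replicate 3 (0.0996), CD54+CD31- replicate 1 (0.0928), or CD54+CD31- replicate 2 (0.0512). *Ccs*, the chaperone that gives SOD1 its copper, was lower in P2 than in CD54+CD31- cells (-0.83) and did not pass against CD31+ cells (0.24, and -0.13 with the authors' factors). Secreted *Sod3* was at means of 0.407 CPM in P2 cells and 3.46 in CD54+CD31- cells and rose at E18.5 to 28.6 (log2 fold change 3.23, edgeR adjusted p = 0.000114). Mesenchymal and lung epithelium markers were also higher at that age. *Sod3* had 18.3, 30.5, and 37.2 CPM in E18.5 replicates 1, 2, and 3, whereas the mesenchymal markers summed to 4412, 4102, and 3988 CPM. Which cells *Sod3* came from was not tested. Of these 3 genes 1 was higher and 2 lower in P2 than in CD54+CD31- cells, 1 higher and 1 lower in P2 than in CD31+ cells, 3 lower in CD31+ than in CD54+CD31- cells, and 1 higher and 1 lower at E18.5.
NADPH gives both systems their electrons, and of 8 genes of its supply 7 were tested and *G6pdx* was listed at 0. All 7 were lower in CD31+ than in CD54+CD31- cells, beside 34.0% of all genes, with *Idh1* (-2.79) and *Me1* (-1.99) lowest. P2 cells were higher than CD54+CD31- cells in *Taldo1* (0.79) and *Tkt* (0.73), of the pentose phosphate route, and lower in 4, led by *Idh1* (12.6, 10.9, and 11.5 CPM against 282, 277, and 331). The 1 gene not called was *Pgd*, of the same route, with means of 119.5 CPM in P2 cells and 119.3 in CD54+CD31- cells. Against CD31+ cells 3 of the list were higher in P2 cells and 3 lower. At E18.5 *Me1* rose (1.89) and 6 fell, led by *Tkt* (-1.49) and *Nnt* (-1.45).
Selenoprotein synthesis, on which the TGA codons of *Gpx1* and *Gpx4* depend, was followed in 7 genes, 6 of them tested, with *Pstk* listed at 0. All 6 were higher in P2 than in CD31+ cells, beside 34.3% of all genes, led by *Sephs2* (1.77), which makes the selenium donor. Against CD54+CD31- cells 3 were higher, with *Secisbp2* at 1.17, and 2 lower, with *Sephs2* at -1.62. *Sephs2* had 57.3, 45.4, and 66.3 CPM in P2 cells against 158, 173, and 182. CD31+ cells had 1 higher and 4 lower than CD54+CD31- cells, and E18.5 cells 0 higher and 4 lower than E14.5 cells, *Sephs2* (-1.53) and *Trnau1ap* (-1.28) among them. At E18.5 *Sephs2* had 14.9, 63.0, and 79.6 CPM, lowest in replicate 1. Its call (edgeR adjusted p = 0.0387) was lost with the authors' factors (0.0595), with at least 10 counts in every library (0.0522), and without E14.5 replicate 1, 2, or 3 or E18.5 replicate 2 (0.0712 to 0.0968), and held without E18.5 replicate 1 (-1.09).
The peroxisome list of 10 genes, whose products share the organelle with catalase, was lower in all 10 in P2 than in CD54+CD31- cells and in all 10 in CD31+ than in CD54+CD31- cells, beside 36.1% and 34.0% of all genes. *Abcd3*, a transporter of fatty acids in the peroxisomal membrane, had 52.5, 48.2, and 51.7 CPM in P2 libraries, 46.1, 56.0, and 47.9 in CD31+ libraries, 202, 209.7, and 212 in CD54+CD31- cells, and 235, 208, and 217 in E18.5 cells. The P2 and CD31+ libraries overlapped, and all 6 lay below every CD54+CD31- library of either age. Between P2 and CD31+ cells 4 of the list were higher and 2 lower. Of the lower, *Pex14* (-0.45) lost its call with only the 6 libraries compared (edgeR adjusted p = 0.0622) and without some single libraries (0.0501 to 0.119). At E18.5 2 were higher and 6 lower. The higher call of *Abcd3* (0.27, edgeR adjusted p = 0.0452) was lost without a low count filter (0.0633), with the replicate block (0.0884), and with all 12 libraries in a single fit (0.443). It was also lost without any single library except E18.5 replicate 1 (0.0607 to 0.123).
Of 12 regulators and targets of the antioxidant response, P2 cells had 5 higher and 3 lower than CD54+CD31- cells, and 6 higher and 5 lower than CD31+ cells. *Hmox1*, heme oxygenase, had 2.37, 11.1, and 5.62 CPM in P2 libraries, 117, 147, and 214 in CD31+ libraries, and 42.6, 41.5, and 71.7 in CD54+CD31- cells, an order unlike that of *Prdx1*, which is also known as a target of NRF2, the activator of that response. *Bach1*, a repressor of that response, was 1.34 higher in CD31+ than in CD54+CD31- cells on the log2 scale, and *Mafk*, its partner, 1.79 higher in P2 than in CD54+CD31- cells. CD31+ cells had 4 higher and 4 lower, as had E18.5 cells, where *Foxo3* rose by 2.35 on the log2 scale. Of 8 oxidant sources 7 were tested and *Cyba* was listed at 0. P2 cells had 1 higher (*Rac2*) and 5 lower than CD54+CD31- cells, and 1 higher and 6 lower than CD31+ cells. The other comparisons had 4 higher and 0 lower in CD31+ cells, and 3 higher and 1 lower at E18.5, where the *Rac2* call was lost with the authors' factors (edgeR adjusted p = 0.0596) and without E14.5 replicate 2 (0.105), E14.5 replicate 3 (0.0894), or E18.5 replicate 2 (0.0664).
Without E18.5 replicate 1 the genes higher and lower at E18.5 were 3 and 6 in the thioredoxin list, 2 and 1 among the other superoxide dismutases and *Ccs*, 3 and 7 in the peroxisome list, and 4 and 1 among oxidant sources, beside 36.8% and 35.9% of all genes. In the glutathione, NADPH, selenoprotein, and antioxidant response lists the counts were as with it. *Ccs* turned from a value below 0 that did not pass to a call of higher (0.28, edgeR adjusted p = 0.0316).

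Over the 12 libraries, log2(CPM + 1) of *Prdx2* and *Gpx1* had a Pearson correlation of 0.974, that of *Prdx1* and *Prdx4* 0.961, and that of *Prdx3* and *Prdx6* 0.919, whereas *Prdx5* and *Gpx1* had -0.436. The libraries fall into 4 populations and share their depth and scaling, so these values describe the order of the populations. Among 9285 genes with a mean of at least 10 CPM, those closest to *Prdx1* were *Igf2bp3* (0.994), *Ctsa* (0.992), and *Arid3a* (0.989), those closest to *Prdx2* were *Cct2* (0.997), *Nop9* (0.996), and *Pms1* (0.995), and those closest to *Prdx4* were *Hspa5* (0.988), *Stard4* (0.983), and *Inpp5f* (0.980). *Cat* was closest to *Gpam* (0.997), *Ass1* (0.993), and *Echdc2* (0.992), *Gpx1* to *Cs* (0.991), *Eif1ax* (0.990), and *Klf16* (0.989), and *Sod1* to *Tmem147* (0.994), *Commd3* (0.987), and *Oxa1l* (0.987). For *Prdx3* they were *Gtf3c4* (0.992), *Zdhhc6* (0.989), and *Mtx2* (0.987), for *Prdx5* *Idh2* (0.974), *Itfg1* (0.972), and *Tmed4* (0.968), for *Prdx6* *Zc3h14* (0.991), *Pik3r2* (0.989), and *Pacsin2* (0.985), and for *Gpx4* *Scand1* (0.977), *Dctn2* (0.976), and *Selenow* (0.967).
The promoters of the 2 closest pairs of members are shown because each pair kept a like order of populations, from 250 bases before to 50 bases after the RefSeq gene start (GRCm38.p6), 5′ to 3′ on the strand of the gene. Both strands were searched for the antioxidant response element TGACNNNGC, the GATA site AGATAA, the CACCC box CCACACCC, and the GC box CCGCCCC, and capitals mark the matches as they read on the printed strand.
Prdx1, chr4:116685349-116685648, plus strand: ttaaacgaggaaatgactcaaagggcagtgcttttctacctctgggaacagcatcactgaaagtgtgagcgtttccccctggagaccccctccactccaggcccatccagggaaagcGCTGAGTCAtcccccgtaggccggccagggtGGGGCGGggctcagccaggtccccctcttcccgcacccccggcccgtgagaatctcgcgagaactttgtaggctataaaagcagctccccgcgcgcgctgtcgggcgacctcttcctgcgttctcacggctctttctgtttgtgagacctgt
Prdx4, chrX:155338411-155338710, minus strand: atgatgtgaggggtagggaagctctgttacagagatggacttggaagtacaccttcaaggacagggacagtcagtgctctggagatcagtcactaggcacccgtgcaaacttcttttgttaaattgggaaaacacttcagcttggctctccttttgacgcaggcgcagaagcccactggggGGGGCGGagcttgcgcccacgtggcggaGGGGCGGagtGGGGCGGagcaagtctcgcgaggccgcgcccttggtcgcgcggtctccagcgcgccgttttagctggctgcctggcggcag
Prdx2, chr8:84969372-84969671, plus strand: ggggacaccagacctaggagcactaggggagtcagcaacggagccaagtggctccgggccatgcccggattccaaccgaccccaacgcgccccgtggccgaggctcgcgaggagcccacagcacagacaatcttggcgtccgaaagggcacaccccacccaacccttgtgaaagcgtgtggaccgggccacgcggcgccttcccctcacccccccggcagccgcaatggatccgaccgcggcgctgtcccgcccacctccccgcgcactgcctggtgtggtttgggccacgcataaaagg
Gpx1, chr9:108338830-108339129, plus strand: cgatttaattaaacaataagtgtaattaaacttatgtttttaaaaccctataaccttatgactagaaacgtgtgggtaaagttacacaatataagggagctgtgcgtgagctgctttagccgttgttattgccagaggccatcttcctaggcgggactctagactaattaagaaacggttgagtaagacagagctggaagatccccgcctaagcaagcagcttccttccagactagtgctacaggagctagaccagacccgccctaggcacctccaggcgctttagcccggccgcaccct
*Prdx1* held 1 antioxidant response element and 1 GC box, *Prdx4* held 3 GC boxes, and *Prdx2* and *Gpx1* held none of the 4 motifs. RefSeq promoters were given for 9 of the 10 members, all but *Prdx6*. The antioxidant response element was in 12.4% of all 32851 promoters and in those of *Prdx1* and *Sod1*, the GC box in 23.2% and in those of *Prdx1*, *Prdx4*, *Prdx5*, *Cat*, and *Sod1*, the CACCC box in 3.56% and in that of *Prdx3*, and the GATA site in 11.2% and in none of the members. The motifs do not overlap in these windows, and a match to the letters is no evidence of a bound factor.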

How the data were processed

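Ribosomal RNA was removed enzymatically and libraries were made with a stranded kit for low input. The submitters' processing notes name cutadapt 1.11, STAR 2.5.0a, featureCounts 1.4.6-p3, and R 3.5.1, with GRCm38 (mm10) as the genome. The strand setting and the treatment of reads with several alignments are not given in the sources used here. The authors deposited raw read counts of 38127 genes per library, which were used for every test. The authors also deposited a normalized score, equal to the rounded product of the count and a library's factor (DESeq2 per the study's methods), which served here only to recover that factor.

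Counts were tested in R 4.3.3 with edgeR 4.0.16 (filterByExpr, TMM, quasi-likelihood test, Benjamini-Hochberg adjustment over all genes tested, adjusted p below 0.05). One fit held the 9 libraries of E14.5 and another the 6 libraries of CD54+CD31- cells, with population or age as the only factor. The standard error is the size of the log2 fold change over the root of its F value. Levels are CPM with TMM factors over all 12 libraries, given as mean and SD over 3 libraries, and are divided by exon length (GENCODE vM21) where genes are compared. Exon length is the union of all exons annotated to a gene, not the length of the transcripts in use. At 40714017 to 64368883 counts per library, the 3 libraries per population limit the precision more than counting error does. Replicate pairs differed by a chi-square of at least 42.0 per degree of freedom, so none was taken for a duplicate. Overlap of libraries within the tested comparisons was read on the scale of each fit. Elsewhere, as in the order of all populations or of genes, it was read on the CPM of all 12 libraries.

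Replicate numbers come from the labels. Same-numbered libraries deviated together between CD31+ and CD54+CD31- cells, with correlations across genes of 0.33, 0.26, and 0.12, and there the numbers were taken to pair the samples. The main fits left this pairing out, and it entered only as the replicate block. Between P2 and CD31+ cells the correlations were 0.015, 0.077, and 0.34, and P2 replicate 2 was closest to CD31+ replicate 1. In simulated counts for P2 against CD54+CD31- cells over 15461 genes, edgeR recovered 62 of 100 genes changed 2-fold and 86 of 100 changed 4-fold, and called 8 unchanged genes. For the ages, over 15863 genes, it recovered 31 and 80 of 100 and called 9.

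The alternatives were DESeq2's size factors, the authors' factors, genes above 1% of a library left out, DESeq2 1.42.0, no low count filter, at least 10 counts in every library, the replicate block, a fit of all 12 libraries, a fit of the 6 libraries of a comparison alone, and the omission of each library. The 10 genes and the lists were chosen with earlier results of these data known. The genes named are the 10 members, their direct partners, per list and comparison the largest called changes without overlap in each direction, the 3 genes most correlated with each member, markers, and copies of members. Not every gene that this rule names is reported here. Motifs were chosen with Biopython 1.88 searches of these promoters in view.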

Additional observations from a re-analysis of the deposited data

How the results depend on the processing

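The counts of the 10 genes and of all genes called in each direction stayed within 1.5 times their value under every alternative. Leaving out each library in turn gave 4 members higher and 4 to 5 lower in P2 than in CD54+CD31- cells, 7 higher and 2 to 3 lower in P2 than in CD31+ cells, 0 higher and 8 to 9 lower in CD31+ than in CD54+CD31- cells, and 0 higher and 6 to 9 lower at E18.5. Over all alternatives, 548 log2 fold changes of members kept their direction and side of the threshold, 28 lost a call, 11 gained one, and 3 turned. Mean levels of members were also recomputed on the total count and with DESeq2's size factors. Of these values 57 were classed as the same and 23 as moved, so the CPM levels depend on the scaling. With the authors' factors the log2 fold change in P2 over CD54+CD31- cells was -0.11 for *Gpx4*, -0.025 for *Txn1*, and -0.18 for *Txnrd1*, that of *Ccs* in P2 over CD31+ cells was -0.13, and those of *Cat* and *Ccs* at E18.5 were 0.14 and 0.16. With at least 10 counts in every library *Txnrd1* was -0.015, and *Cat* and *Ccs* at E18.5 were 0.050 and 0.070. *Gsr* in P2 over CD54+CD31- cells was 0.0063 with all 12 libraries in one fit and between -0.031 and 0.013 with a library left out, and *Ccs* at E18.5 was between -0.37 and 0.28, the latter without replicate 1. The authors' factors shifted the median of all genes. DESeq2's size factors computed here moved it less, by 0.0017, -0.025, 0.026, and 0.028 log2 units in the 4 comparisons. Why these factors differ, and the cause of the other changes, was not tested. The replicate block, used without a shown pairing except between CD31+ and CD54+CD31- cells, moved *Sod1* in P2 over CD54+CD31- cells below the threshold (edgeR adjusted p = 0.0496) and ended the E18.5 calls of *Prdx6* (0.0829) and *Gpx4* (0.0592). It changed no other call of a member. In P2 and CD54+CD31- cells the same-number correlations were 0.07, -0.02, and 0.08. With 3 libraries per population, a gene that did not pass is not shown to be equal. Part of the simulated 2-fold changes were missed, but those genes had any abundance and do not measure the power for these 10 genes.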
